A study of Mus musculus with 4 samples.

Results

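The 8 genes described here are the ones most often used to recognise basophils and mast cells: *Fcer1a*, *Ms4a2* and *Fcer1g*, *Mcpt8* and *Cpa3*, *Hdc*, *Cd200r3* and *Gata2*. They were chosen by name, as the rows of these symbols in the count tables of the series, which together list 21739 genes. All 8 were found, and 7 of them had a row in all 4 libraries. The table of Control 1 held no row for *Mcpt8*, so that gene is described in the other 3 libraries and Control 1 enters no sentence on *Mcpt8*-positive cells.

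The study collected periwound skin on day 7 from C57/BL6j mice, labelled as 6 weeks old, that carried full-thickness skin wounds. Control mice received injections of PBS, and hucMSC-Exo mice received 100 µg of exosomes (small vesicles) from human umbilical cord mesenchymal stem cells every 48 h. Each group had 2 mice with 1 droplet single-cell RNA library per mouse, so each p-value between groups rests on the spread between single mice. The tissue labels of the libraries name gut sections while the cell type label names skin cells. Groups follow the sample titles, although letters in the matrix names would pair the libraries differently, so which group a difference favours depends on the titles being right. The mast cell-like cells below had UMIs of *Cma1* and *Mcpt4*, proteases of connective tissue mast cells such as those of skin. Both genes were among the markers that named these cells, so their presence does not settle the tissue. The mucosal protease genes *Mcpt1* and *Mcpt2* had no row in any library, so their level is not known.

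Basophils circulate in the blood and enter inflamed tissue, while mast cells mature and stay in it. Both carry the high-affinity IgE receptor FcεRI, whose α chain (*Fcer1a*) binds IgE, whose β chain (*Ms4a2*) amplifies the signal and whose γ chain (*Fcer1g*) passes it into the cell. The γ chain also serves other Fc receptors and activating receptors, so that many myeloid and NK cells make it. Both cell types store histamine, made by histidine decarboxylase (*Hdc*), and granule proteases, of which *Mcpt8* marks mouse basophils and *Cpa3*, carboxypeptidase A3, is abundant in mast cells. *Cd200r3* is an activating surface receptor of both, and *Gata2* is a transcription factor that both lineages need.

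The deposited tables held 7178 cells. Of these, 6443 passed limits of 200 to 3000 genes and 10% mitochondrial reads and were kept: 952 and 2074 in Control 1 and 2, and 1416 and 2001 in hucMSC-Exo 1 and 2. The kept cells of a library held 4779405 to 11243740 UMIs (unique molecular identifiers, which count captured RNA molecules). A cell with at least 1 *Mcpt8* UMI was called *Mcpt8*-positive. All kept cells were clustered without the 8 genes, clusters were named from other markers, and *Mcpt8*-positive cells were then taken out of the classes they are compared with. CPM is the number of UMIs of a gene per 1000000 UMIs of all cells of a population in 1 library. Of the deposited barcodes, 6 occurred in more than 1 library, and none of them was that of an *Mcpt8*-positive cell.

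The genes lie on 7 chromosomes, given here in the mm10 build with GENCODE positions. *Fcer1a* (chr1:173221284-173227214) and *Fcer1g* (chr1:171229572-171234365) share chromosome 1 and its minus strand. *Ms4a2* is at chr19:11615523-11623719, *Mcpt8* at chr14:56082166-56085273, *Cpa3* at chr3:20215620-20242181 and *Hdc* at chr2:126593667-126619299, all on the minus strand. *Cd200r3* (chr16:44943678-44981380) and *Gata2* (chr6:88193891-88207032) are on the plus strand, and all 8 are annotated as protein-coding.

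Because *Gata2* was present in the same cells as the receptor and protease genes, windows around each gene's RefSeq start were searched for GATAA. This is the core of the motif that GATA factors bind. The windows ran from 250 bases before to 50 bases after that start, and either strand was searched (TTATC on the printed strand). RefSeq starts can differ from the GENCODE positions above, as they do for *Fcer1a*, *Fcer1g*, *Mcpt8* and *Hdc*. Windows of 4 of the 8 genes held it: *Ms4a2* with 3 matches, *Cd200r3* with 2, and *Cpa3* and *Fcer1a* with 1 each. Among all 32851 windows of this length in the RefSeq table, 25.4% held the motif. Below are the windows of the β chain, the α chain and carboxypeptidase A3, which hold it, and of *Mcpt8*, which does not, from RefSeq on GRCm38.p6, each read 5′ to 3′ on the gene's minus strand with the motif in capitals.
Ms4a2 (chr19:11623670-11623969): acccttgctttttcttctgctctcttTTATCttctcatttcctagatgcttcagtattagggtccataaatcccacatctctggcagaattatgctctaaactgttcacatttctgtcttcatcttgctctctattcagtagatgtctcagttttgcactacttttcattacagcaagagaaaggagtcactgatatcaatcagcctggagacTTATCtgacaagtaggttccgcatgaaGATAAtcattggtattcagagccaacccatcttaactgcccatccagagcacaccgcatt
Fcer1a (chr1:173227180-173227479): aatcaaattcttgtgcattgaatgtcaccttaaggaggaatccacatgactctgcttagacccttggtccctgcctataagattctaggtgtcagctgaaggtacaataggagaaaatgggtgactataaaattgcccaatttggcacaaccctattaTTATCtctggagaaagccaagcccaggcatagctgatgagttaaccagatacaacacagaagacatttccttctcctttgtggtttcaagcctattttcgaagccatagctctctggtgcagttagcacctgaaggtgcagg
Cpa3 (chr3:20242132-20242431): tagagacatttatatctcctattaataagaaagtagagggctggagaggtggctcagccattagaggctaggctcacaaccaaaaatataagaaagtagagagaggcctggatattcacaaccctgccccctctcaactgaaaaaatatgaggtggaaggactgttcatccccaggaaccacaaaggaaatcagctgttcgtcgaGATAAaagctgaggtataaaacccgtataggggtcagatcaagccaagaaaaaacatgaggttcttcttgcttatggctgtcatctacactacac
Mcpt8 (chr14:56085148-56085447): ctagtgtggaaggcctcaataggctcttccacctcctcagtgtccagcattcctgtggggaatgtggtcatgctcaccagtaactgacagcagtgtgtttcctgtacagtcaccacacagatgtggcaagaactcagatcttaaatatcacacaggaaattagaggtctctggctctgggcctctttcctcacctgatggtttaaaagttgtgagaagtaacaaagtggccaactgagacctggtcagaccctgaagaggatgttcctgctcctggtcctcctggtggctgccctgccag
In *Cpa3* the match began 45 bases before the start, and in *Ms4a2* the nearest began 10 bases before it. A match of 5 letters is a description of the sequence and was not tested as a binding site.

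*Mcpt8* was found in 91 kept cells, 57 of Control 2, 19 of hucMSC-Exo 1 and 15 of hucMSC-Exo 2. The cells held a median of 7 *Mcpt8* UMIs with a range of 1 to 64, and 9 of them held a single one. Of the 91 cells, 87 lay in 1 cluster of 101 cells that was named basophil-like, with *Il4*, *Il6*, *Cyp11a1*, *Ccl4* and *Slc18a2* among its leading genes. Of the other 4 cells, 2 lay among the 39 mast cell-like cells and 1 each in the unnamed clusters led by *Gcsam* and *Gzmc*. Outside the basophil-like and mast cell-like classes, 2 of 5358 cells held *Mcpt8*, a share of 0.0373% (95% exact Clopper-Pearson interval 0.0045 to 0.135%), with 1 UMI each. None of the 983 neutrophil-like cells of these libraries held it, which allows a share of up to 0.305%. Intervals and limits cover counting error only. A further 3 *Mcpt8*-positive cells had over 3000 detected genes and were left out.

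In the *Mcpt8*-positive cells the summed *Mcpt8* level was 3957 CPM in Control 2, 2777 CPM in hucMSC-Exo 1 and 2563 CPM in hucMSC-Exo 2. These values follow from the choice of the cells and are given without a test. At the edge of the threshold, the 9 cells with a single *Mcpt8* UMI included 7 with *Hdc* and 7 with *Gata2*. The 13 basophil-like cells of these libraries without *Mcpt8* all held both *Hdc* and *Gata2*, at a median depth of 1992 UMIs against 3342 UMIs in the 9 cells with a single one. The cells just outside the threshold thus held the same pair of genes as most of those just inside it.

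The other 7 genes differed in how often they were seen in *Mcpt8*-positive cells. *Hdc* was detected in 89 of the 91 cells, *Gata2* in 88 and *Fcer1g* in 87. *Fcer1a* was detected in 49, *Cd200r3* in 44, *Cpa3* in 38 and *Ms4a2* in 23. By library, *Ms4a2*, the β chain, was seen in 24.6% of the cells of Control 2 (interval 14.1 to 37.8%), 21.1% of hucMSC-Exo 1 (6.05 to 45.6%) and 33.3% of hucMSC-Exo 2 (11.8 to 61.6%). The 3 intervals overlapped, as they did for each of the other 6 genes. Neutrophil-like cells, which also make *Hdc* and *Fcer1g*, gave the background for the other 5 genes: *Cpa3* was seen in 0.0962% of cells at a median depth of 2097 UMIs, *Cd200r3* in the same share, and *Ms4a2*, *Fcer1a* and *Gata2* in none of 1039. No *Mcpt8*-positive cell lacked all 7 of the other genes, and 2 cells held all 7.

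**Figure D1:**
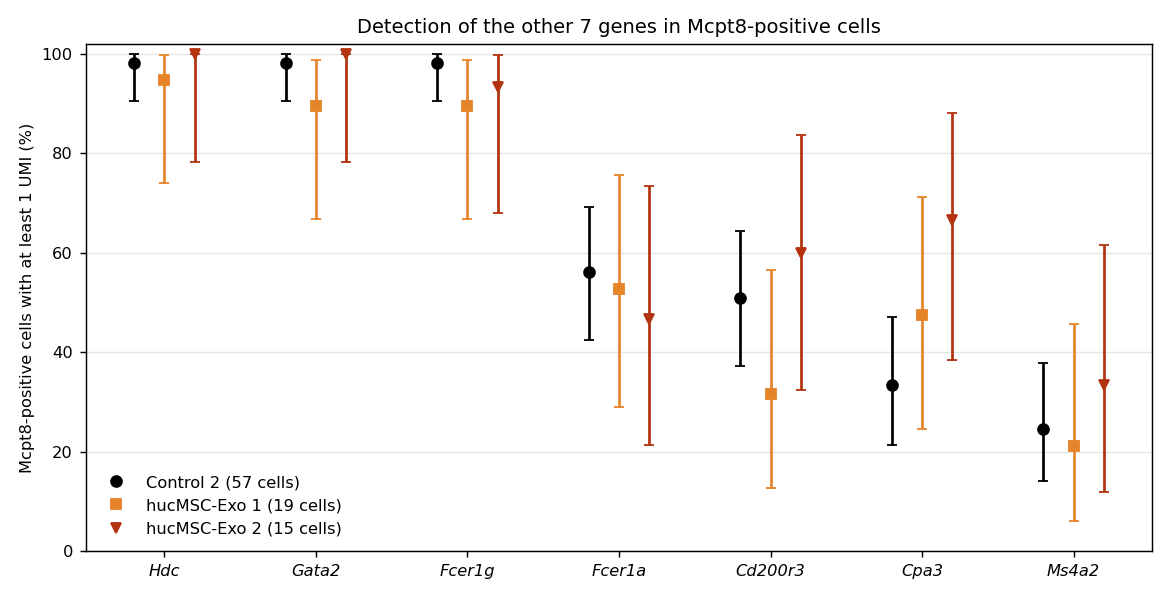
Share of *Mcpt8*-positive cells (%) with at least 1 UMI of each of the other 7 genes, 1 point per library with its 95% exact Clopper-Pearson interval. *Hdc*, *Gata2* and *Fcer1g* were found in 89.5% or more of the cells of every library, and *Ms4a2* in 33.3% or fewer.

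The first comparison asks which of these genes separate *Mcpt8*-positive cells from the other granulocytes, the neutrophil-like cells without *Mcpt8* (347, 93 and 543 cells in Control 2, hucMSC-Exo 1 and hucMSC-Exo 2). *Fcer1a*, *Ms4a2*, *Cpa3*, *Cd200r3* and *Gata2* were near absent from neutrophil-like cells and present in *Mcpt8*-positive cells of all 3 libraries. *Hdc* was present in both and about 2.61-fold higher in *Mcpt8*-positive cells. *Fcer1g* was also present in both and was lower in *Mcpt8*-positive cells. In the edgeR quasi-likelihood test with the library as a block, 50.6% of the 2046 tested genes passed (Benjamini-Hochberg adjusted p under 0.05), 23.6% with a higher level in *Mcpt8*-positive cells and 27.1% with a lower one. *Hdc* and *Fcer1g* both passed. The other 5 genes had 0 to 2 UMIs in the neutrophil-like cells and got past the filter on low counts only through the *Mcpt8*-positive cells, so their levels are given as a description with no p-value. The median log2 fold change of all tested genes was -0.16.

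*Fcer1a*, the chain that binds IgE, was at 331 CPM in the *Mcpt8*-positive cells of Control 2, 290 CPM in hucMSC-Exo 1 and 254 CPM in hucMSC-Exo 2. It had no UMI in the neutrophil-like cells of any library, so over the 3 summed libraries it was at least 229-fold higher (a count of 3 in place of 0 over the group). *Ms4a2*, the β chain, was at 99.3, 68.1 and 106 CPM in the same order. It also had no UMI in neutrophil-like cells and was at least 69.4-fold higher. Both chains were seen in the *Mcpt8*-positive cells of each library and in no neutrophil-like cell.

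*Fcer1g*, the γ chain, went the other way. Its level was 1598 CPM in the *Mcpt8*-positive cells of Control 2, 1039 CPM in hucMSC-Exo 1 and 1441 CPM in hucMSC-Exo 2. In the neutrophil-like cells of the same libraries it was 3080, 3417 and 3171 CPM. Every value of the *Mcpt8*-positive cells lay below every value of the neutrophil-like cells. The log2 fold change was -1.03 with a standard error (SE) of 0.28 (adjusted p = 0.00431).

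*Cpa3* was at 444, 494 and 530 CPM in the *Mcpt8*-positive cells of Control 2, hucMSC-Exo 1 and hucMSC-Exo 2. Neutrophil-like cells of these libraries held 2 *Cpa3* UMIs, both in 1 cell of hucMSC-Exo 2, which gives a ratio of 513 (95% counting interval 140 to 4279). *Cd200r3* was at 241, 153 and 318 CPM against 1 UMI in all neutrophil-like cells, a ratio of 520 (90.6 to 20826). A single cell of Control 2 carried 48 of the 94 *Cpa3* UMIs of its library. It lay in the mast cell-like cluster and also held 36 *Mcpt8* and 36 *Tpsb2* UMIs, *Tpsb2* being a mast cell tryptase. In hucMSC-Exo 1, another cell of that cluster carried 17 of the 29 *Cpa3* UMIs, with 1 *Mcpt8* and 37 *Mcpt4* UMIs. With only the 87 cells of the basophil-like class, a setting chosen after seeing the data, *Cpa3* was at 228, 271 and 530 CPM.

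*Gata2* was at 2194, 1703 and 2415 CPM in *Mcpt8*-positive cells and had no UMI in neutrophil-like cells, at least 1568-fold higher over the summed libraries. *Hdc* was at 5550, 4667 and 6249 CPM in *Mcpt8*-positive cells. In neutrophil-like cells it was at 2296, 1754 and 2036 CPM, and the groups did not overlap. Its log2 fold change was 1.65 with an SE of 0.27 (adjusted p = 3.29e-05). Most neutrophil-like cells held the gene, 962 of 1039. When each cell was thinned to 1000 UMIs, which left out 34 neutrophil-like cells, *Hdc* was found in 80.0% of neutrophil-like and 96.7% of *Mcpt8*-positive cells, against 92.6% and 97.8% before thinning.

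**Figure D2:**
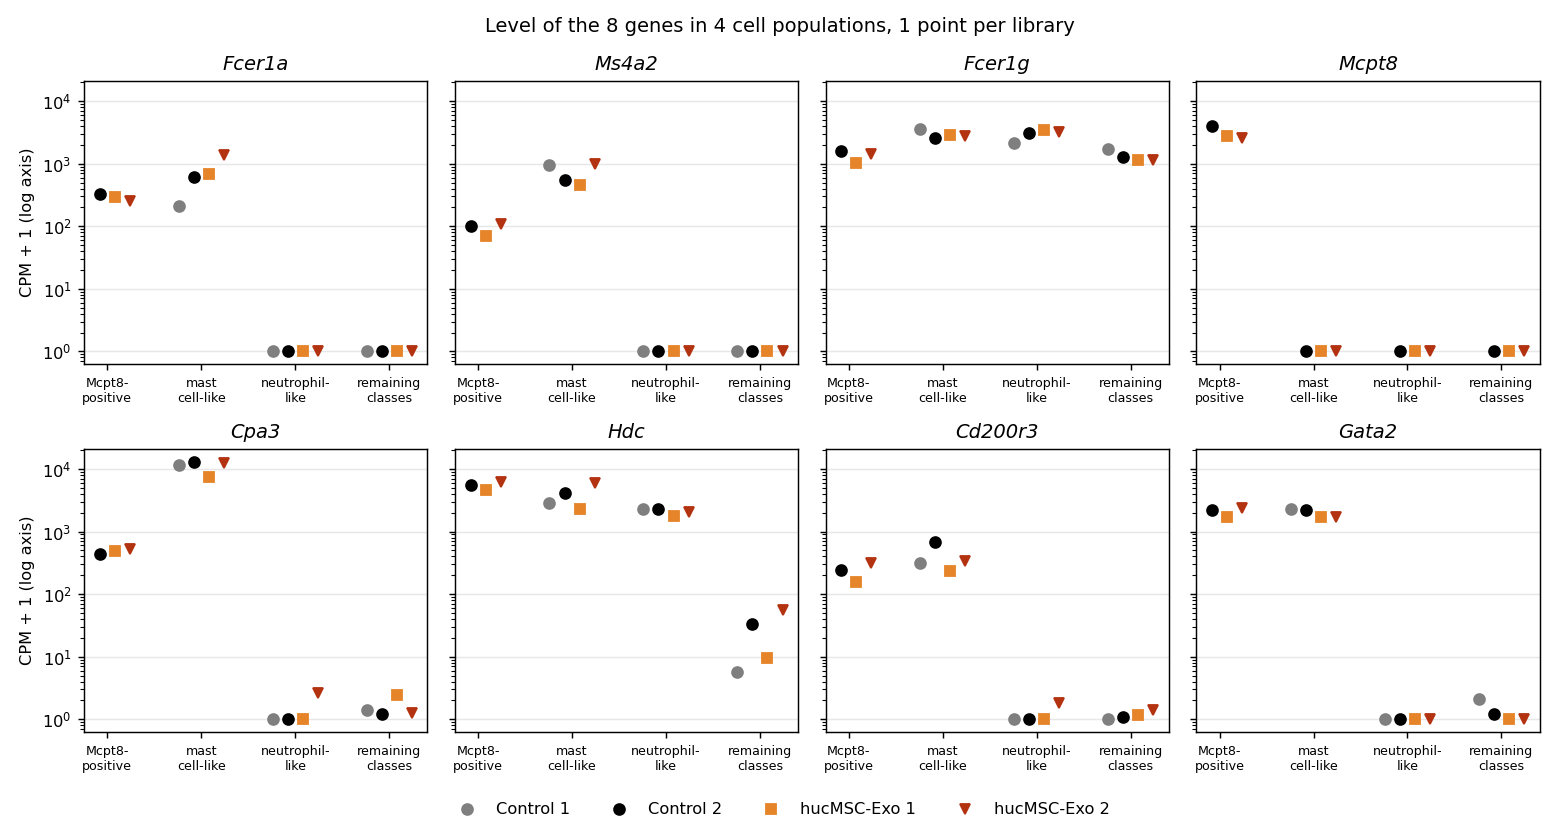
CPM + 1 on a log axis of each gene in *Mcpt8*-positive cells, mast cell-like cells, neutrophil-like cells and all remaining classes, 1 point per library. Values of 0 CPM sit at 1, *Mcpt8* has no point for Control 1, and *Fcer1g* is the only gene of the 8 above 1000 CPM in every population of every library shown.

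The second comparison set *Mcpt8*-positive cells against mast cell-like cells without *Mcpt8*, which are few and shallow: 14, 5 and 12 cells with 14568, 8727 and 15008 UMIs in Control 2, hucMSC-Exo 1 and hucMSC-Exo 2. *Cpa3*, *Ms4a2* and *Fcer1a* were lower in *Mcpt8*-positive cells, while *Fcer1g*, *Hdc* and *Gata2* did not pass the test. In this test 41.7% of 460 genes passed, 22.4% with a higher and 19.3% with a lower level in *Mcpt8*-positive cells. Of the 6 genes tested here *Cpa3* passed, at a lower level. *Ms4a2* and *Fcer1a* got past the filter on low counts only through the mast cell-like cells, where they were higher. Their levels and fold changes are therefore given as a description with no p-value. *Cd200r3* had too few counts to be tested. Without Control 2, none of 511 genes passed the edgeR test, with 202 at an unadjusted p under 0.05. *Cpa3*, *Ms4a2* and *Fcer1a* kept their direction there.

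*Cpa3* was at 13042 CPM in the mast cell-like cells of Control 2, 7334 CPM in hucMSC-Exo 1 and 12260 CPM in hucMSC-Exo 2, each above all 3 values of the *Mcpt8*-positive cells. Its log2 fold change was -4.18 with an SE of 0.35 (adjusted p = 2.96e-06). Without Control 2 it was -3.89 (adjusted p = 0.053). *Ms4a2* was at 549, 458 and 999 CPM in mast cell-like cells, above all 3 values of the *Mcpt8*-positive cells. Its log2 fold change was -2.46 with an SE of 0.49. Without Control 2 it was -2.67. After thinning to 1000 UMIs, *Ms4a2* was found in 4.40% of *Mcpt8*-positive cells (interval 1.21 to 10.9%) and 73.9% of the 23 mast cell-like cells deep enough (51.6 to 89.8%).

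*Fcer1a* was at 618, 688 and 1399 CPM in mast cell-like cells, against 254 to 331 CPM in *Mcpt8*-positive cells. Its log2 fold change was -1.26 with an SE of 0.46. Its call in the fit was close to the threshold and was lost with DESeq2 and without Control 2. *Fcer1g* was at 2608, 2865 and 2799 CPM in mast cell-like cells, with a log2 fold change of -0.75, an SE of 0.30 and an adjusted p of 0.0638. *Hdc* was at 4119, 2292 and 6063 CPM there (log2 fold change 0.74, SE 0.32, adjusted p = 0.0857). *Gata2* was at 2197, 1719 and 1732 CPM (log2 fold change 0.44, SE 0.30, adjusted p = 0.267). For *Hdc* and *Gata2* the values of both populations overlapped. *Cd200r3* was at 686, 229 and 333 CPM in mast cell-like cells, again overlapping the *Mcpt8*-positive cells.

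**Figure D3:**
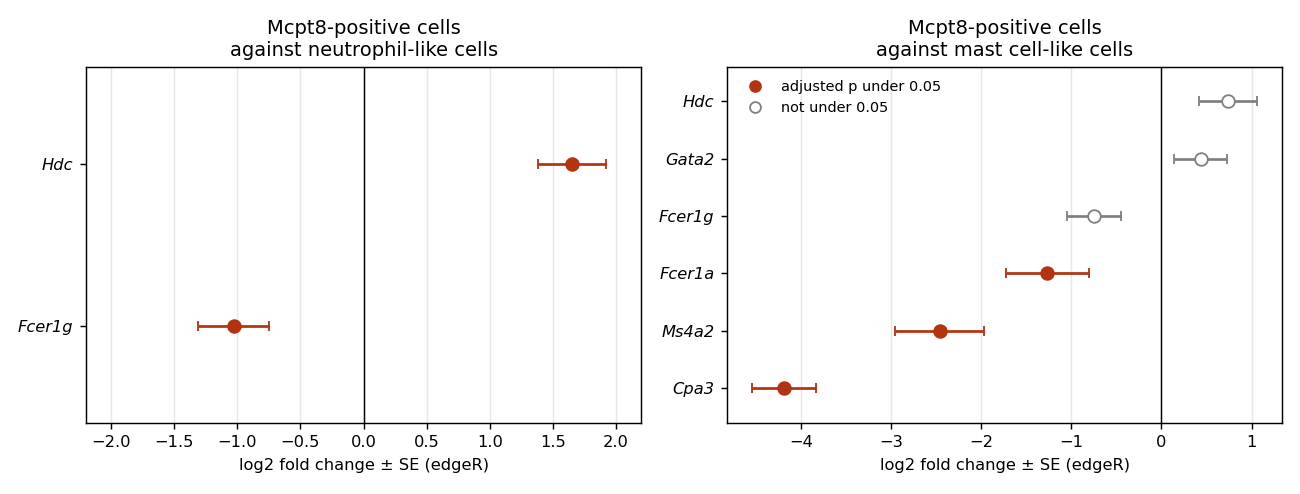
log2 fold changes with their SE from edgeR for *Mcpt8*-positive cells against neutrophil-like cells (left, *Hdc* and *Fcer1g*) and against mast cell-like cells (right). Filled points have an adjusted p under 0.05. *Ms4a2* and *Fcer1a* got past the filter only through the mast cell-like cells, so their points are a description. *Cpa3* lies lowest at -4.18 and *Hdc* is above 0 in both panels.

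The remaining genes of the IgE pathway were read from lists of related genes. Those genes took part in the clustering that defined the neutrophil-like and mast cell-like cells, so their counts describe these populations and are not independent tests. Those near 0 in 1 population also passed the filter only through the other. Of 14 FcεRI signalling proteins, 6 could be tested against neutrophil-like cells, where 1 was higher and 4 were lower (median log2 fold change -1.23). *Lat2*, an adaptor of the receptor, was the higher one, at 148 to 312 CPM in *Mcpt8*-positive cells and up to 5.0 CPM in neutrophil-like cells (ranges over 3 libraries for *Mcpt8*-positive cells and over all 4 for the other classes). The kinase genes *Syk* (33.1 to 84.7 CPM against 368 to 651 CPM) and *Lyn* (0 to 47.3 CPM against 223 to 323 CPM) were lower. Of 10 receptors and adaptors that share or resemble the γ chain, 6 were tested and all 6 were lower, among them *Fcgr3*, an IgG receptor that signals through the γ chain (85.2 to 169 CPM against 402 to 629 CPM), and *Clec4d*, a C-type lectin receptor (104 to 290 CPM against 1654 to 2957 CPM). Like *Fcer1g* itself, these 6 genes were lower in *Mcpt8*-positive cells. Genes outside the called ones did not all go this way. *Fcgr2b*, of the same list, was at 51.1 to 169 CPM in *Mcpt8*-positive cells against 5.66 to 17.5 CPM. Of the signalling list, *Fyn* (42.4 to 68.1 CPM against 0 to 11.3 CPM) and *Lat* (17.0 to 63.6 CPM against 0 to 12.5 CPM) were also higher.

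Of 23 basophil products and receptors, 15 were tested against neutrophil-like cells and 13 were higher with none lower (median log2 fold change 4.67). *Il4*, the cytokine that drives type 2 responses, was at 1525 to 4349 CPM in *Mcpt8*-positive cells and at most 1.25 CPM in neutrophil-like cells. *Cyp11a1*, a steroid-making enzyme, was at 953 to 1305 CPM in *Mcpt8*-positive cells and had no UMI in neutrophil-like cells. Of 12 histamine and lipid mediator genes, 3 were tested and all 3 were higher, including *Slc18a2*, which loads histamine into granules (127 to 449 CPM against at most 2.45 CPM). Of 15 lineage transcription factors, 7 were tested, with 4 higher and 2 lower. *Cebpa* (84.7 to 273 CPM against 1.63 to 22.6 CPM) was among the higher ones and *Bhlhe40* (52.0 to 102.2 CPM against 171 to 270 CPM) among the lower ones. *Prss34*, the other basophil protease, had a row only in Control 2, with 16 UMIs in 3 of its 57 *Mcpt8*-positive cells.

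Against mast cell-like cells, 5 of 12 mast cell proteases and receptors could be tested and all 5 were lower in *Mcpt8*-positive cells. Among all 460 tested genes, 19.3% passed at a lower level. All 5 were among the markers that named the mast cell-like cells, so this count follows from that choice. *Cma1* and *Mcpt4*, the chymases, were at 20969 to 36615 CPM and 21084 to 29651 CPM in mast cell-like cells. Of the *Mcpt8*-positive cells, 2 of 91 held *Cma1*, 2 held *Mcpt4* and 2 held *Tpsb2*. In the mast cell-like cluster lay 2 of the 91. Both of these held *Tpsb2*, but only the cell of hucMSC-Exo 1 held *Mcpt4*. *Kit*, the receptor for stem cell factor, was at 344 to 1991 CPM in mast cell-like cells and at most 33.1 CPM in *Mcpt8*-positive cells. Of the eosinophil genes, *Prg2*, *Ear1*, *Ear2* and *Ear6* had no UMI in *Mcpt8*-positive cells, *Ccr3* had 4 and *Siglecf* 3. None of the 9 eosinophil genes passed the filter on low counts in either comparison.

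Across the remaining classes, *Fcer1a*, *Ms4a2*, *Gata2*, *Cd200r3* and *Cpa3* were close to 0. *Mcpt8* was absent there because the cells that held it had been taken out. Outside the basophil-like, mast cell-like and neutrophil-like classes, *Fcer1a* and *Ms4a2* had no UMI in 5262 cells without *Mcpt8*, which had a median depth of 4716 UMIs. *Gata2* was seen in 3 of these cells (0.0570%), *Cd200r3* in 4 (0.0760%) and *Cpa3* in 7 (0.133%). Of the 15 *Cpa3* UMIs in those cells, 11 came from 3 cells of the group 2 innate lymphoid cell-like class. *Fcer1g* and *Hdc* had their own patterns.

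*Fcer1g* was a broadly shared gene of these cells. Its mean level over libraries was 2965 CPM ± 429 (SD, n = 4) in mast cell-like cells and 2948 CPM ± 567 (n = 4) in neutrophil-like cells, which did not differ beyond that spread. Next came the cluster led by *Gcsam*, at 2712 CPM ± 241 (n = 4), dendritic epidermal T cell-like cells at 2203 CPM ± 212 (n = 4), macrophage-like cells at 2068 CPM ± 329 (n = 4) and monocyte-like cells at 1960 CPM ± 114 (n = 4). Neighbours in this order differed by less than their spread, except the step from the cluster led by *Gcsam* to dendritic epidermal T cell-like cells. NK cell-like cells were at 1557 CPM ± 188 (n = 4), and *Mcpt8*-positive cells followed at 1359 CPM ± 288 (n = 3). At the low end stood gamma delta T cell-like cells at 108 CPM ± 64.8 (n = 4), group 2 innate lymphoid cell-like cells at 88.5 CPM ± 22.5 (n = 4) and CD4 T cell-like cells at 18.3 CPM ± 7.92 (n = 4). In CD4 T cell-like cells 3.30% of the 667 cells held a UMI of it, against 98.2% of the 384 dendritic epidermal T cell-like cells.

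*Hdc* outside the granulocytes was concentrated in a few cells. Fibroblast-like cells were at 248 CPM ± 175 (n = 3) and CD4 T cell-like cells at 135 CPM ± 177 (n = 4), against 2104 CPM ± 268 (n = 4) in neutrophil-like cells. In CD4 T cell-like cells the values were 0 CPM in Control 1, 163 CPM in Control 2, 3.28 CPM in hucMSC-Exo 1 and 375 CPM in hucMSC-Exo 2, so the gene was high in 1 library of each group. Of the 667 CD4 T cell-like cells 27 held *Hdc*, and 19 cells with 5 or more UMIs carried 505 of its 515 UMIs. All 19 held *Cd3e*, 1 held *Fcer1g*, none held *Gata2* and 4 held the neutrophil gene *S100a8*. Of the same 19 cells, 10 held *Il13* and 8 held *Il4*. The share of the other CD4 T cell-like cells with either gene was not counted, and the source of this *Hdc* RNA was not tested. Of the 470 neutrophil-like cells with 5 or more *Hdc* UMIs, 459 held *Fcer1g* and none held *Il13* or *Il4*. The fibroblast-like cells with 5 or more *Hdc* UMIs were 7, and all 7 held *S100a8*; the part of neutrophil RNA in that level was not tested.

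**Figure D4:**
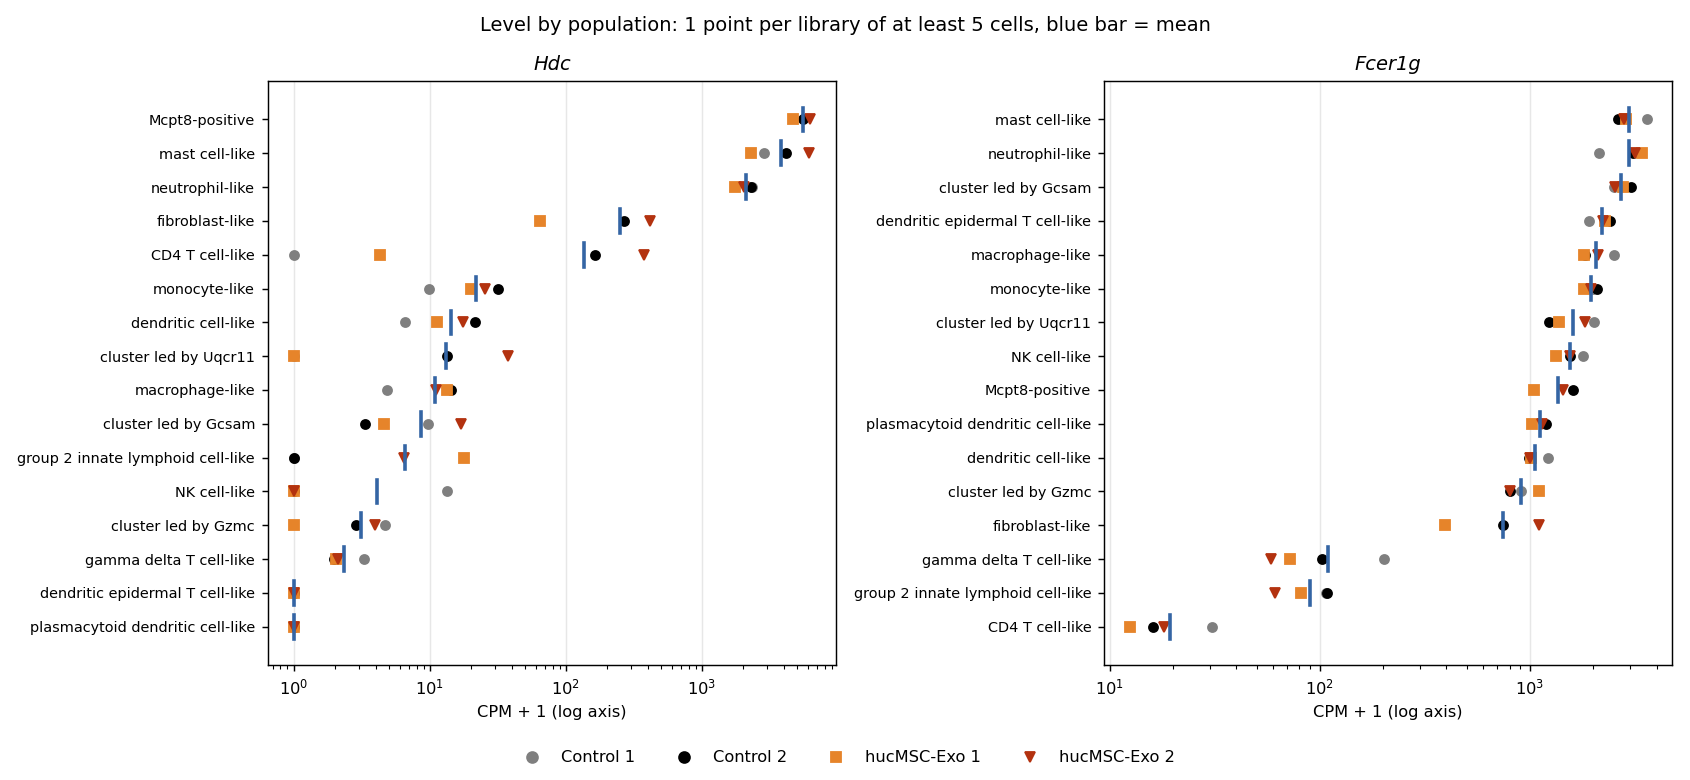
CPM + 1 on a log axis of *Hdc* (left) and *Fcer1g* (right) in each population that had at least 5 cells in at least 3 libraries, 1 point per such library and a blue bar at the mean. *Hdc* drops from 2104 CPM in neutrophil-like cells to 248 CPM in the next class, while *Fcer1g* averages 746 CPM or more in all but 3 of the populations plotted.

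To see which genes followed this pattern, the summed levels of each class and library with at least 10 cells were compared as log2(CPM + 1). Over 47 such sums in 3 libraries, the genes most like *Mcpt8* were *Amigo2* (Pearson r = 0.95), *Car8* (0.92), *Gata2* (0.88), *Il6* (0.86) and *Gm45237* (0.86). *Cd200r3* ranked 8 (0.85), *Fcer1a* 11 (0.82), *Ms4a2* 17 (0.78), *Cpa3* 28 (0.73), *Hdc* 78 (0.57) and *Fcer1g* 1198 (0.15). The genes most like *Fcer1g*, over 59 sums in 4 libraries, were *Cers6* (0.67), *Asph* (0.65), *Efhd2* (0.64), *Tmem189* (0.64) and *Ctsd* (0.63). Sums of 1 library share its depth, and these values are descriptions without a test.

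The remaining comparisons asked whether the genes differed between hucMSC-Exo and Control. The share of *Mcpt8*-positive cells was 2.75% in Control 2 (interval 2.09 to 3.55%), 1.34% in hucMSC-Exo 1 (0.810 to 2.09%) and 0.750% in hucMSC-Exo 2 (0.420 to 1.23%). The interval of hucMSC-Exo 1 ended where that of Control 2 began, and that of hucMSC-Exo 2 lay below it. With 1 control library this difference has no test between groups. Basophil-like cells, defined without the 8 genes, were counted in all 4 libraries: 0.105% of the cells of Control 1 (1 of 952), 2.84% of Control 2, 1.62% of hucMSC-Exo 1 and 0.900% of hucMSC-Exo 2. The 2 controls were the lowest and the highest of the 4 libraries. The means were 1.47% ± 1.94 (SD, n = 2) in Control and 1.26% ± 0.512 (n = 2) in hucMSC-Exo, and the exact two-sided permutation test gave p = 1.0, and 2 against 2 libraries cannot reach a p under 0.05 (the smallest is 0.33). The difference was -0.213 percentage points with all libraries, -1.58 without Control 1, 1.16 without Control 2 and 0.149 without hucMSC-Exo 2. Mast cell-like cells were 0.630% and 0.723% of the Control libraries and 0.424% and 0.60% of the hucMSC-Exo libraries, with overlapping intervals.

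**Figure D5:**
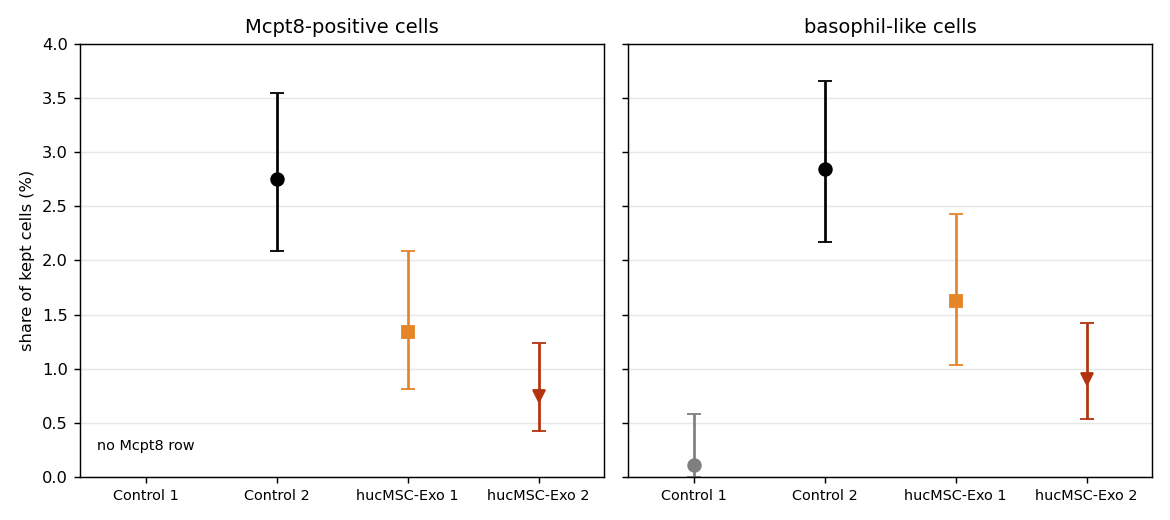
Share of kept cells (%) that were *Mcpt8*-positive (left) or basophil-like (right) in each library, with 95% exact Clopper-Pearson intervals. Control 2 is highest in both panels at 2.75% and 2.84%, and Control 1, which had no *Mcpt8* row, had 0.105% basophil-like cells.

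Summed over all kept cells, none of the 7 genes present in all 4 libraries passed the edgeR test between hucMSC-Exo and Control (12104 genes tested, 0% passed, 183 at an unadjusted p under 0.05; with DESeq2, 0 and 119). *Gata2* was at 7.32 and 46.3 CPM in Control 1 and 2 and at 22.3 and 17.5 CPM in hucMSC-Exo 1 and 2. *Hdc* was at 70.7 and 309 CPM in the controls and at 110 and 374 CPM in hucMSC-Exo. *Cpa3* was at 24.3 and 25.5 CPM against 16.6 and 23.9 CPM, and *Fcer1g* at 1759 and 1409 CPM against 1211 and 1433 CPM. *Fcer1a* was at 0.418 and 7.12 CPM in the controls against 3.87 and 3.65 CPM. *Ms4a2* was at 2.51 and 2.76 CPM against 1.24 and 2.21 CPM. The groups did not overlap for *Cpa3* and *Ms4a2* and overlapped for the other 5 genes. Between 2 and 2 libraries, even no overlap gives an exact two-sided permutation p of 0.33, so this was not read as a difference. The share of all tested genes without overlap was not counted. The log2 fold changes of the 7 genes ran from -0.53 (*Ms4a2*, SE 0.49) to 0.36 (*Hdc*, SE 0.87), each with an adjusted p of 1.0. In such sums, fewer cells of a type and less RNA per cell cannot be told apart.

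Within *Mcpt8*-positive cells, Control 2 was the only control library with such cells, and no test between groups was possible. Control 2 lay above both hucMSC-Exo libraries for *Mcpt8*, *Fcer1a* and *Fcer1g*, below both for *Cpa3* and between them for the other 4 genes. With a single control library this order is a description, and the share of all genes in each position was not counted. The mast cell-like cell of Control 2 named above held 18 *Fcer1a* UMIs, and in the cells of the basophil-like class alone Control 2 lay between the others, with *Fcer1a* at 258 CPM in Control 2, 361 CPM in hucMSC-Exo 1 and 254 CPM in hucMSC-Exo 2. In those cells *Hdc* moved below both, at 5482 CPM against 5736 and 6249 CPM. With at least 2 *Mcpt8* UMIs per cell, Control 2 was above both for *Mcpt8*, *Ms4a2* and *Fcer1g* and below both for *Hdc*. Within neutrophil-like cells, 2 of the 8 genes passed the filter on low counts. *Fcer1g* was at 2126 and 3080 CPM in Control 1 and 2 and at 3417 and 3171 CPM in hucMSC-Exo 1 and 2. Its log2 fold change was 0.48 with an SE of 0.43 (adjusted p = 0.999). *Hdc* was at 2331 and 2296 CPM in the controls and at 1754 and 2036 CPM in hucMSC-Exo. Its log2 fold change was -0.13 with an SE of 0.38 (adjusted p = 0.999). For both genes the groups did not overlap, with *Fcer1g* higher and *Hdc* lower in hucMSC-Exo. With 2 against 2 libraries, no overlap gives an exact two-sided permutation p of 0.33. The share of all tested genes without overlap was not counted. In this fit 0% of 3942 genes passed, with 46 at an unadjusted p under 0.05, and with DESeq2 0 and 19.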

How the data were processed

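Periwound skin of 4 mice was measured by 3′ droplet single-cell RNA sequencing. The authors aligned reads to mm10 with Cell Ranger 6.1.2 and deposited UMI counts for each gene in each cell as whole numbers, not normalized. The study's methods state that genes found in under 3 cells were left out and that doublets were removed, but not whether this was done before deposit. The files held fewer cells than the study counts per library.

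Cells were filtered as in the study (200 to 3000 genes, at most 10% mitochondrial UMIs). Counts were scaled to 10000 per cell and logged, and 2000 variable genes, 30 principal components, 15 neighbours and Leiden at resolution 1 (scanpy 1.11.5, seed 0) gave clusters without the 8 genes. A cluster took the class with the highest marker score, given 3 markers detected in 10% of its cells, and stayed unnamed where its 10 leading genes held more markers of another class. Scrublet marked 0.282 to 0.6% of cells per library, and as a doublet call it did not work. UMIs were summed per library and population (at least 5 cells) and tested with edgeR 4.0.16 (quasi-likelihood, TMM, filterByExpr, R 4.3.3). The standard error is the log2 fold change divided by the root of the F statistic. Zero counts were given a limit of 3 counts. The fits were tested on simulated data.

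The text names all 8 genes, for each list the counts that passed with up to 4 of its called genes of largest change, and the 5 genes most like *Mcpt8* and *Fcer1g*. *Prss34*, *Tpsb2*, the eosinophil genes of the list that had UMIs or none, *Cd3e* and *S100a8* were chosen after seeing the data. So were the threshold of 5 *Hdc* UMIs and the use of *Il4* and *Il13* in the cells that reached it. The genes and lists were chosen with earlier results of these data known. The planned permutation test of *Mcpt8*-positive shares over 4 libraries was replaced by values, since Control 1 lists no *Mcpt8*. Replicate numbers marked no shared animal or day, and the deviations of same-numbered libraries from their group means correlated at 0.206. This is a single value, since the deviations of 2 libraries from their mean mirror each other. Alternatives were RLE scaling, DESeq2 1.42.0, no filter, cells over 3000 genes kept, called doublets left out, other resolutions (0.6 and 1.6), thresholds of 2 *Mcpt8* UMIs or 10 cells, a replicate block and leaving out each library. Using only the *Mcpt8*-positive cells of the basophil-like class and counting Control 1 at 0 were added after seeing the data.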

Additional observations from a re-analysis of the deposited data

How the results depend on the processing

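Against neutrophil-like cells, *Hdc* and *Fcer1g* kept their direction and their side of the threshold in each fit run. The count of all genes that passed fell to 570 without Control 2 from 1036 and ran from 570 to 1532 when a library was left out. Without a filter 429 were higher and 1033 lower (482 and 554 as reported), with a median log2 fold change of -0.78. Against mast cell-like cells, leaving out a library gave 0 to 3 of the 8 genes and 0 to 228 of all genes past the threshold, with 192 as reported (103 higher and 89 lower) and 371 without a filter (292 and 79). There, without a filter, the median of all genes moved to 1.01, *Fcer1g* to 0.15 and the call of *Ms4a2* was lost (adjusted p = 0.156), while *Gata2* at 1.33 and *Hdc* at 1.64 passed. With cells over 3000 genes kept, *Gata2* was at -0.0091 and *Fcer1g* passed at -1.16. The call of *Fcer1a* in the fit was also lost with RLE scaling and with at least 2 *Mcpt8* UMIs. The cause was not tested.

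Between hucMSC-Exo and Control no gene of the 8 passed in any fit. Over all cells the sign turned with cells over 3000 genes kept (*Cd200r3* 0.15, *Cpa3* 0.079, *Fcer1a* 0.20). With 1 library left out, log2 fold changes ran from -0.94 to 2.41 for *Cd200r3*, -0.95 to 3.29 for *Fcer1a* and -1.25 to 1.62 for *Gata2* (each highest without Control 2), from -0.51 to 0.0067 for *Cpa3* and from -0.77 (without hucMSC-Exo 2) to 1.96 (without Control 2) for *Hdc*, which was also at -0.38 without Control 1. With the replicate number as a block, *Cd200r3* was at 0.17, *Fcer1a* at 0.33 and *Gata2* at 0.0066, and the block changed no call. In neutrophil-like cells *Hdc* ran from -0.27 to 0.11 (without Control 2), 3 genes of all tested passed without a filter and 0 to 6 with a library left out (6 without Control 1). Within *Mcpt8*-positive cells, with cells over 3000 genes kept, Control 2 was above both hucMSC-Exo libraries for 8 genes. With a hucMSC-Exo library left out, Control 2 was above the other for 3 to 7. The share of all genes so placed was not counted in either setting. The difference in *Mcpt8*-positive shares was -1.70 percentage points, and -0.33 with Control 1 counted at 0, a setting chosen after seeing the data (exact permutation p = 1.0). Few mast cell-like cells and 1 control library with *Mcpt8* set the limits of these comparisons.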
